A study of Rattus norvegicus with 9 samples.

Results

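Of the 22512 genes listed in the expression table, 59 are cytokines, chemokines, their receptors, Toll-like receptors or CD surface antigens that carry a gene symbol. They were chosen by name: GRO-A, and every symbol that begins with IL and a digit, CCL, CXCL, CCR and a digit, CXCR, TNF, IFN, TLR, CSF, or CD and a digit, with CD44 left out. The levels of GRO-A and TNFSF10 in these data were known when this rule was set. By role they are 12 interleukins with their receptors and antagonists, 6 chemokine ligands, 5 chemokine receptors, 9 TNF superfamily and TNF-induced genes, 7 Toll-like receptors, 1 colony-stimulating factor, 1 interferon and 18 CD antigens. The CD names cover surface proteins of many kinds, among them the complement inhibitor CD59 and the lysosomal tetraspanin CD63, so not all 59 genes are immune receptors or their ligands. A further 20346 entries of the table carry only a LOC number, and whether any of these belong to the same families is not known here.

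RNA was sequenced from cardiac fibroblasts (CFs) of neonatal rats, the cells that lay down collagen in the heart, used at the second or the third passage. There were 3 libraries in the blank group (no agent), 3 in the AngII group (angiotensin II, a peptide hormone that raises blood pressure, at 0.1 µM for 72 h) and 3 in the vericiguat + AngII treatment group (vericiguat, a stimulator of soluble guanylate cyclase, at 1.0 µM for 24 h, then the same AngII treatment). These doses and times come from the sample labels, while for the migration assay the methods state another order of agents and other times. No group had vericiguat alone, and nothing states that the 3 libraries of a group came from separate cultures, so p-values measure only the spread between these libraries.

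Chemokines such as GRO-A (CXCL1, a ligand of CXCR2 that attracts neutrophils) and CCL2 (a ligand of CCR2 that attracts monocytes) are secreted by fibroblasts when NF-kB is active, and IL6 is a cytokine made under the same control. Toll-like receptors recognise microbial products and material from damaged cells, and their signals lead to cytokine and interferon production. IL18 is an inflammatory cytokine that IL18BP binds and blocks, and TNFSF10 (TRAIL) is a TNF family ligand that can trigger cell death through its receptors.

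All values are FPKM, fragment numbers divided by gene length and by the library total, and so a level per gene length. The 13 entries whose names begin with KEF51 took 96.7% to 97.9% of the summed FPKM in the blank and AngII libraries and 45.3% to 52.3% in the treated ones. The number of genes at FPKM of 1 or more was 260 to 1542 in the blank group, 1155 to 1517 in the AngII group and 11280 to 11565 in the treatment group, and the second blank library, with 260, stood apart from the rest. The processing notes of the samples name the assembly OryCun2.0, which is a rabbit assembly, while the samples are labelled as rat. Its effect on these values was not tested. Of 12 fibroblast markers 4 are listed (COL1A2, DCN, LUM and FN1), and all but FN1, at 0 in AngII 2, were above 0 in every library. Their summed FPKM was 1.70 to 24.7 in blank, 7.09 to 25.7 in AngII and 368 to 527 in treated libraries. Markers of cardiomyocytes (7 of 15 listed) summed to 6.95 to 9.68, 47.0 to 114 and 3958 to 6357 in the same order. Since most genes stood higher in the treated libraries, each value was also divided by a library factor, the median ratio over the 3826 genes above 0 in all 9 libraries, which was 0.0792 to 0.463 for blank, 0.297 to 0.448 for AngII and 13.9 to 15.8 for treated libraries. Such values are called scaled below, and whether the library scale or the treatment set the deposited difference cannot be told apart.

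Leukocyte markers were few by symbol. Of 10 macrophage and monocyte markers only CD14 is listed, at FPKM of 0.151 to 1.14 in blank, 0 to 0.202 in AngII and 5.16 to 8.56 in treated libraries. Of 8 T cell markers CD3E, CD4 and CD5 are listed. They were at 0 in the 3 blank libraries, summed to at most 0.085 in AngII and to 1.28 to 1.83 in treated libraries. No marker of the B cell list or of the list shared by all leukocytes is listed by symbol. In bulk RNA fewer cells of a type and less RNA per cell cannot be told apart.

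The blank and AngII libraries held little of these genes. In them 21 of the 59 (35.6%) were listed at 0 throughout, against 37.0% of all listed genes. In the treated libraries 43 (72.9%) were above 0 in all 3, against 68.3% of all listed genes. IFNG and IL2 were listed at 0 in all 9 libraries, and 5 of the 59 genes (CD1D, CD59, IL18BP, CD38 and TLR4) were above 0 in every library. A mean FPKM of 1 or more was reached by 5 of the genes in blank (GRO-A, CD1D, IL6, CCL2 and IL18BP), by CD1D alone in AngII, and by 20 in the treatment group, where 39 stayed below 1. The summed FPKM of the 59 genes was 81.5, 7.66 and 43.8 in blank, 4.40, 6.42 and 5.07 in AngII and 409, 440 and 474 in treated libraries. One gene led each group. GRO-A made up 70.1%, 68.5% and 68.3% of that sum in the blank libraries, CD1D was the highest in AngII with 26.2%, 37.5% and 43.1%, and TNFSF10 took 43.3%, 42.4% and 44.9% in the treated libraries.

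**Figure D1:**
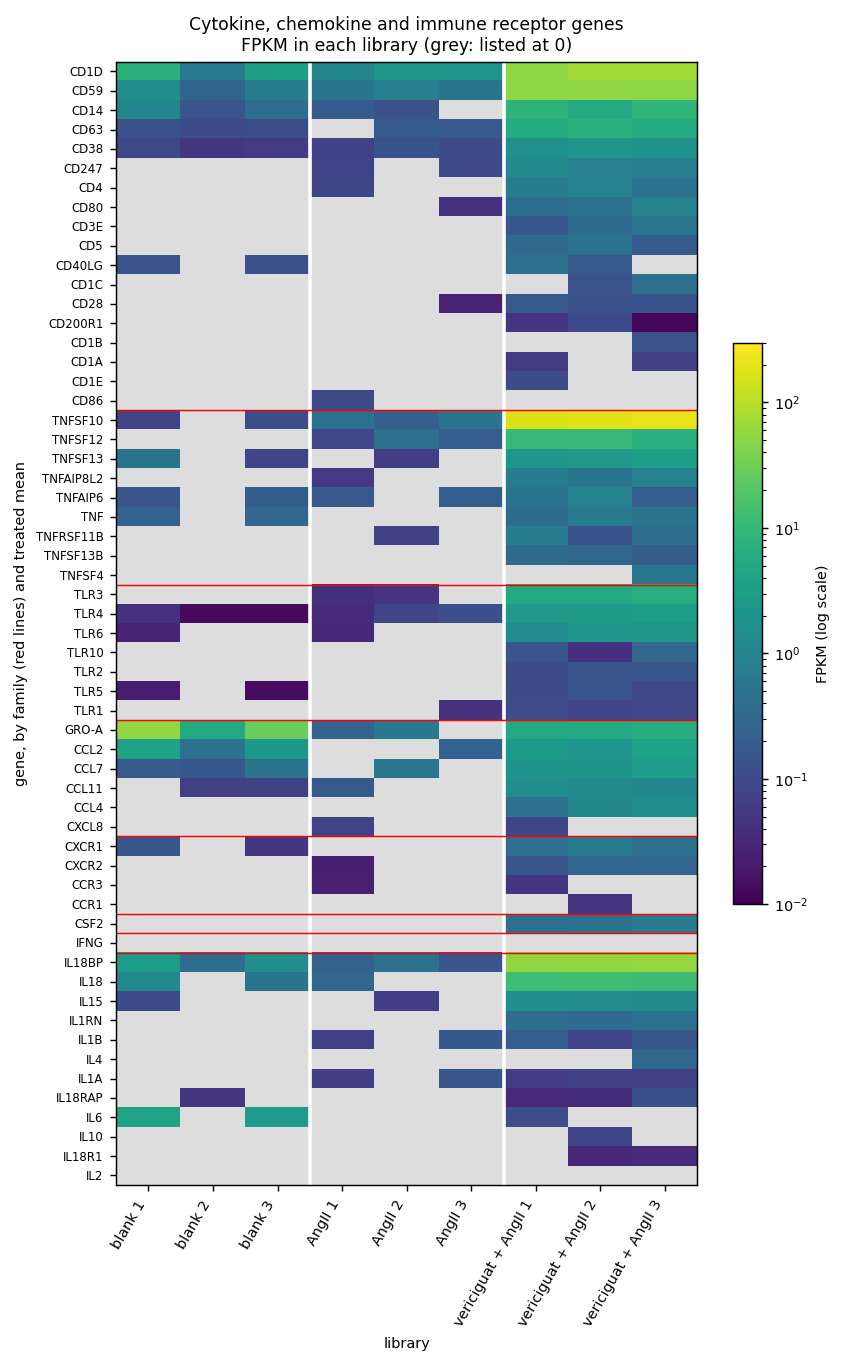
FPKM of the genes (rows, grouped by family between red lines, with 1 of the 59 not drawn) in the 9 libraries (columns), as colour on a log scale, with grey for a gene listed at 0. Most rows are coloured in the treated columns, 12 to 23 in the blank and AngII columns, and GRO-A is the brightest cell of the blank columns.

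Promoter sequences are shown for 4 of these genes, chosen after their values were seen, because they stand for the different patterns described here: IL6 (read in blank libraries), CCL7 (a chemokine gene close to CCL2), IL18BP (highest in treated libraries in FPKM and in blank on scaled values) and TNFSF10 (high in treated libraries). Each runs from 250 bases before to 50 bases after the start of the rat gene in RefSeq, assembly GRCr8, matched by symbol and not by position in the deposited table. Entries were found for 39 of the 59 genes (40 promoters, since Cd80 has 2), and none for GRO-A or CCL2. Capitals mark matches, on either strand, to GGGANNTTC (core letters of an NF-kB motif), AAANNGAAA (core letters of an interferon-stimulated response element, ISRE) or TTCNNNGAA (a gamma-activated site, GAS), where N is any base, and no match of one overlaps a match of another in these 4. In Il6 (chr4:5894526-5894825, minus strand) the NF-kB letters begin at position -68, with the start site as 1. In Ccl7 (chr10:67513845-67514144, plus strand) they begin at -58, ISRE letters at -110 and GAS letters at 32. In Il18bp (chr1:165786906-165787205, minus strand) ISRE letters begin at 41, and in Tnfsf10 (chr2:112136689-112136988, plus strand) at -129 and at -107.
Il6: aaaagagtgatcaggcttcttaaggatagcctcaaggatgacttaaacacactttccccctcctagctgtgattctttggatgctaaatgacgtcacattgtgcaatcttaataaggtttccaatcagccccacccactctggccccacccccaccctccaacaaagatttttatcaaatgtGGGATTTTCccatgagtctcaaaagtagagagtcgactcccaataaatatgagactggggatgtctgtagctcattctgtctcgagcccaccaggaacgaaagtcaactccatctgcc
Ccl7: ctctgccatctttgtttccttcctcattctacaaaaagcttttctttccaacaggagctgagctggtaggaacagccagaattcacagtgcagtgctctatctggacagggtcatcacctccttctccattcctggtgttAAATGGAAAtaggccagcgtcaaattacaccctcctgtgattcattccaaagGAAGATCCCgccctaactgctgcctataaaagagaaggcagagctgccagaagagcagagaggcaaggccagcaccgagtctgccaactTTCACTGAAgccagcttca
Il18bp: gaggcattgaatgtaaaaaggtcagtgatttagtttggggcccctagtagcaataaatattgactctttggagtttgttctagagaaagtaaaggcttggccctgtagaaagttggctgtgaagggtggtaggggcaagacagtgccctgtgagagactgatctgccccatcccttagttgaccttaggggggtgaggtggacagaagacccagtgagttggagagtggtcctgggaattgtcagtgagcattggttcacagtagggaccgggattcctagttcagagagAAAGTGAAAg
Tnfsf10: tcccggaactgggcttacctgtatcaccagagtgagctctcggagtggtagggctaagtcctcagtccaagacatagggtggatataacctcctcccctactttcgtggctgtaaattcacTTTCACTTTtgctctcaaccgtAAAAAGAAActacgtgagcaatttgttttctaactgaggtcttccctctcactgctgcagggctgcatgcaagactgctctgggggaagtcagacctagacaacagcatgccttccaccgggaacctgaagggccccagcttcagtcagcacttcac

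Over the 40 promoters the NF-kB letters were found in 4 (10%: Il6, Ccl7, Ccr3 and Cxcr2), against 4.05% of the 33469 promoters of the table. The ISRE letters were in 13 (32.5%), against 11.8%, and the GAS letters in 5 (12.5%), against 8.87%. A stricter NF-kB form with a C after these letters was in 3 (Il6, Ccl7 and Ccr3) against 1.30% of all, and a stricter ISRE form with a G before them was in 4 (Il18bp, Il4, Cd80 and Tnfsf13b, not Tnfsf10) against 3.92%. These counts describe the letters in these windows and were not tested.

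Differences between groups were tested with limma on log2(FPKM + 1) over the 10908 genes with FPKM of 1 or more in at least 3 libraries, and a gene is called here at a log2 fold change of 1 or more in size and an adjusted p below 0.05. Of the 59 genes 18 met the FPKM minimum, and 11 of the 18 met it only through the treated libraries, so they had to stand higher there. These were TLR3, TLR4, TLR6, CD38, CD63, IL15, CCL7, CCL11, TNFSF10, TNFSF12 and TNFSF13. Their deposited calls in the treated comparisons below are therefore no test of direction. Since 1 is added to each value, a gene below 1 in every compared library cannot reach a log2 fold change of 1. On scaled values this held in every library for TLR3, TLR4, TLR6, CD38, IL15 and CCL11, so they could not be called in any comparison. It also held for CCL2, CD14, CD63 and TNFSF13 in treated against AngII, and for TNFSF12 in treated against blank. Likewise a gene at low FPKM in the treated libraries cannot reach the median deposited rise of all genes there. The comparison of AngII with blank asks what AngII did to untreated CFs. It called 1 of the 18 genes, GRO-A, which was lower, against 1.55% of all genes tested (1.44% higher, 0.110% lower). GRO-A was included by name with its higher blank level known, so its calls cannot be weighed against such shares. On the scaled values 5 of the 18 were called, all lower in AngII (GRO-A, CCL2, IL18BP, CD14 and CD1D), against 8.39% of all genes (5.16% higher and 3.23% lower). Markers of other cell types were called on the same scaled values. The smooth muscle genes MYH11 and ACTA2 were lower in AngII (-2.96 and -2.47 in log2). DES, the other tested gene of that list, went the other way and was not called (0.72, limma, adjusted p = 0.193). ACTA2 encodes α-SMA, which the paper reports as raised by AngII in CFs. The cardiomyocyte genes MYH6, MYH7 and ATP2A2 were higher (4.29, 2.38 and 1.29). The part of these markers in the result was not tested, and none of the 5 called here was called on deposited values. With a pseudocount of 0.1, 7 of the 18 were called on scaled values, 5 lower and 2 higher (TNFSF10 and TNFSF12). Over all 10908 genes 1727 were called in that fit, 1207 higher and 520 lower. Medians of the log2 fold change were -0.08 for the 18 genes against 0.06 for all on deposited values, and -0.39 against 0.08 on scaled values.

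The comparison of the treatment group with AngII asks what vericiguat ahead of AngII changed. All 18 genes were higher and none lower, and over all genes tested 99.5% were higher and 0.101% lower, with a median log2 fold change of 2.53 for the 18 and 2.76 for all. On scaled values 2 of the 18, TNFSF10 and IL18BP, were called higher and none lower, against 2.34% of all genes higher and 1.82% lower. TNFSF10 was included with its treated level known and met the FPKM minimum only through the treated libraries. Its calls in the treated comparisons thus cannot be weighed against such shares. Several of the 18 could not be called on scaled values, as given above. Against blank, 16 of the 18 were higher and GRO-A was lower, against 99.3% higher and 0.110% lower over all genes, with medians of 2.17 and 2.83. On scaled values TNFSF10 was higher and GRO-A, CCL2 and CD1D were lower, against 6.15% of all genes higher and 3.41% lower. The 3 comparisons share their libraries in pairs, so their results are not independent.

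**Figure D2:**
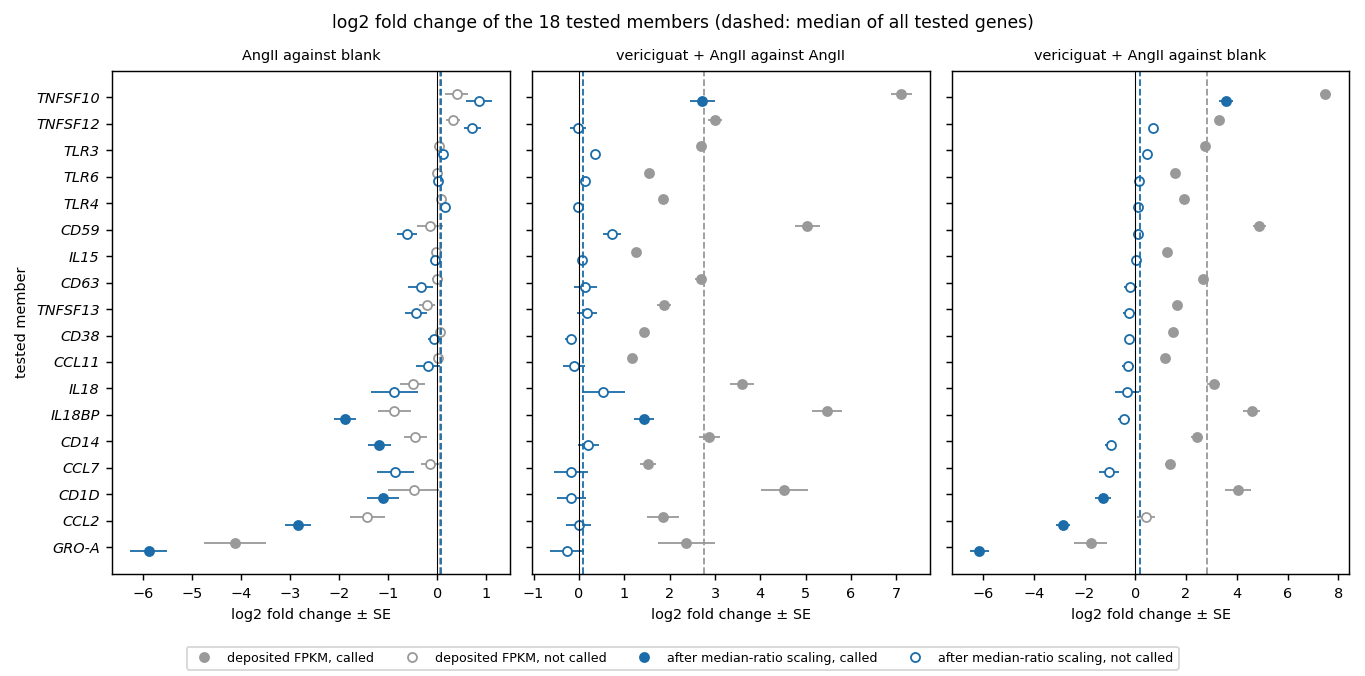
log2 fold change with its SE (limma, 3 libraries a group) of the 18 tested genes in the 3 comparisons, from deposited (grey) and scaled (blue) FPKM. Filled points are called, and dashed lines give the median of all 10908 genes. TNFSF10 lies to the right of the dashed line in the comparisons with the treated libraries on both scales, and GRO-A lies farthest left wherever blank is the reference.

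GRO-A had the largest difference between blank and AngII of the 18 tested genes. It was at FPKM of 57.1, 5.25 and 29.9 in blank, 0.260, 0.651 and 0 in AngII and 5.15, 5.46 and 6.20 in treated libraries. Every AngII library lay below every blank library, while the treated libraries lay around the lowest blank library. AngII differed from blank by a log2 fold change of -4.13 ± 0.63 (SE, limma, adjusted p = 0.0198), and -5.89 ± 0.37 (adjusted p = 9.11e-05) on scaled values. With 3 libraries against 3 the two-sided exact permutation test gave p = 0.1, the smallest it can give. The deposited call was lost when only the compared groups were fitted, with the replicate number as a block, and without any 1 of blank 3, AngII 3 or the treated libraries, with adjusted p of up to 0.137 over all alternatives. On scaled values it held in 13 of 13 alternatives, and without the second blank library the deposited log2 fold change was -5.05 (limma, adjusted p = 7.62e-05).

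The treated libraries showed GRO-A above AngII by 2.37 ± 0.63 in log2 on deposited values (limma, adjusted p = 0.00350). That was 0.40 below the median of all genes, and on scaled values the difference turned to -0.26 ± 0.37 (limma, adjusted p = 0.700). With 1 added, GRO-A at its treated FPKM of 5.15 to 6.20 could not reach that median even from 0. Scaled GRO-A was 123, 66.3 and 114 in blank, 0.876, 1.45 and 0 in AngII and 0.326, 0.385 and 0.446 in treated libraries. On this scale the blank libraries stood far above both other groups. Against blank the treated group was lower by a log2 fold change of -1.77 ± 0.63 (limma, adjusted p = 0.0183; exact permutation p = 0.3) on deposited and -6.15 ± 0.37 (adjusted p = 6.00e-05) on scaled values. The deposited call was lost with a pseudocount of 0.1 and without any 1 of blank 1, blank 3, treated 1 or treated 2.

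The rank of a gene within its own library needs no scaling between libraries. GRO-A was gene 23, 52 and 24 of 9310, 5498 and 8911 genes above 0 in the blank libraries. In the first and second AngII library it was gene 3459 and 2179, of 10425 and 10208, and AngII 3 listed it at 0. In the treated libraries it was gene 6972, 6279 and 5865, of 16751, 16445 and 16465. It thus stood among the highest genes of each blank library, and far lower in each other library.

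**Figure D3:**
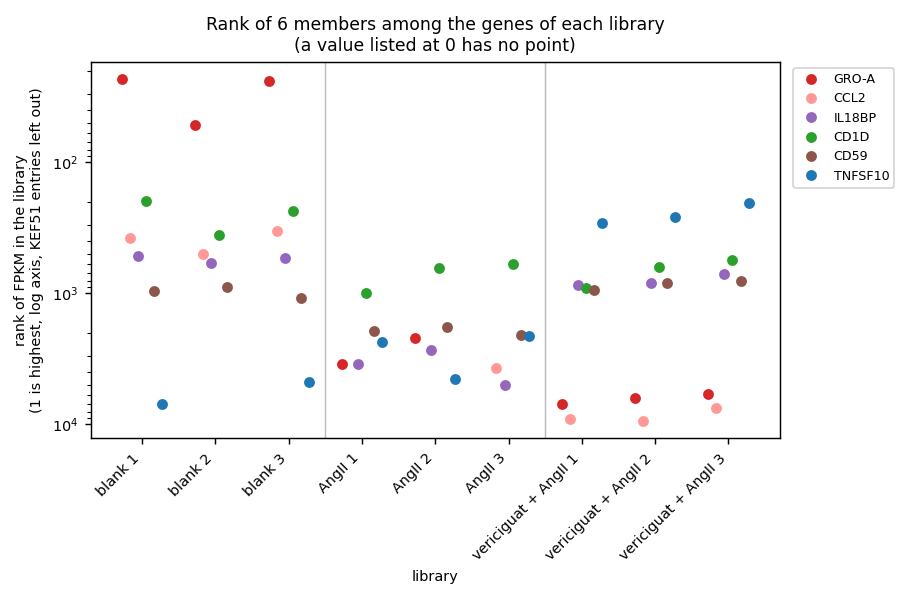
Rank of FPKM of 6 of the genes within each of the 9 libraries (1 is the highest gene, log axis, KEF51 entries left out), 1 point a library and no point where a gene is listed at 0. GRO-A and CCL2 stand high only in the 3 blank libraries (GRO-A at 23 to 52), and TNFSF10 reaches rank 205 to 289 in the treated libraries.

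From blank to AngII, CCL2 moved in the same direction as GRO-A at a lower level. Its FPKM was 3.79, 0.468 and 2.46 in blank, 0, 0 and 0.254 in AngII and 2.76, 2.13 and 3.98 in treated libraries. The blank and AngII libraries did not overlap, and the treated libraries overlapped with blank. Every AngII library below every blank library was seen for 2 of the 57 genes above 0 in any library, GRO-A (included with its blank level known) and CCL2, against 1.15% of all such genes. The log2 fold change of AngII against blank was -1.43 ± 0.35 and missed the threshold (limma, adjusted p = 0.0775), and was -1.92 (adjusted p = 0.00294) without blank 2, -1.06 (adjusted p = 0.153) without blank 1 and -2.85 ± 0.27 (adjusted p = 0.000531) on scaled values. The deposited comparison was called in 5 of 17 alternatives, with adjusted p of up to 0.300, and the scaled one in 13 of 13. Treated against AngII, CCL2 was higher by 1.85 ± 0.35 on deposited values (limma, adjusted p = 0.000315) and at -0.01 ± 0.27 on scaled values. Scaled CCL2 was below 1 in both of these groups, so it could not be called there. Treated against blank, the values were 0.42 ± 0.35 (limma, adjusted p = 0.258) and, scaled, -2.85 ± 0.27 (adjusted p = 0.000214). CCL2 ranked 378, 503 and 333 in the blank libraries and 9129, 9458 and 7563 in the treated ones.

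The other chemokine ligands had no such blank level. CCL7, which attracts monocytes and whose promoter is printed above, was at 0.196, 0.169 and 0.533 in blank, 0, 0.567 and 0 in AngII and 2.07, 2.05 and 2.97 in treated libraries. CCL11 (eotaxin, which attracts eosinophils) was at 0, 0.071 and 0.074, then 0.188, 0 and 0, then 1.63, 1.39 and 1.13. Both were higher in treated than in AngII libraries on deposited values, by 1.52 ± 0.18 and 1.16 ± 0.09 in log2 (limma, adjusted p = 5.92e-06 and 9.99e-08), which was 1.24 and 1.60 less than the median of all genes. With 1 added, genes at these treated FPKM could not reach that median even from 0. Neither was called on scaled values, where CCL11 stood at -0.11 ± 0.24 and CCL7 at -0.18 ± 0.38 against AngII. CCL4, a macrophage chemokine, was at 0 in the 6 blank and AngII libraries and at 0.491, 1.24 and 1.59 in treated ones. An entry named CXCL8, a gene that rat lacks, was listed at 0.084 in AngII 1 and 0.086 in treated 1 and at 0 in the other libraries.

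None of the 5 chemokine receptors met the FPKM minimum. CXCR1, a neutrophil receptor for chemokines of the GRO and IL8 group, was at 0.155, 0 and 0.047 in blank, at 0 in AngII and at 0.425, 0.679 and 0.428 in treated libraries. CXCR2, the main receptor of GRO-A, had an FPKM of 0 in each blank library, of 0.024 in AngII 1 only and of 0.145, 0.298 and 0.284 in treated libraries. GRO-A was thus high in libraries where its receptor was listed at 0. CCR3 was at 0.025 in AngII 1 and 0.051 in treated 1, and CCR1 was at 0.048 in treated 2 only.

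Among the interleukins, IL6 was read almost only in blank. Its FPKM was 4.20, 0 and 2.93 in blank, 0 in each AngII and 0.115, 0 and 0 in treated libraries. The blank library listed at 0 was the second, which had the fewest genes. IL6 was gene 343 in blank 1 and gene 284 in blank 3. It did not meet the FPKM minimum, so a fit with no minimum (18281 genes) was used. AngII against blank was at -1.45 ± 0.51 in log2 (limma, adjusted p = 0.388). Treated against blank was at -1.40 ± 0.51 (limma, adjusted p = 0.0284), a call made for 0.0656% of all genes in this direction. On scaled values it was at -2.31 (limma, adjusted p = 0.0917). The two-sided exact permutation test gave p = 0.4 for both comparisons, and blank overlapped with both other groups. In this fit 15659 genes had an unadjusted p below 0.05 in limma for treated against blank, and 1595 for AngII against blank. The adjustment thus differed much between these comparisons.

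IL18 and its inhibitor IL18BP had their highest deposited FPKM in the treated libraries. IL18BP was at FPKM of 2.83, 0.392 and 1.54 in blank, 0.262, 0.492 and 0.159 in AngII and 55.2, 54.7 and 58.4 in treated libraries (56.1 ± 2.02, mean ± SD, n = 3). In FPKM the treated libraries lay above all others, and blank and AngII overlapped. By rank IL18BP was gene 519, 588 and 533 in blank, 3438, 2721 and 5013 in AngII and 867, 827 and 710 in treated libraries. These ranks were among 9310, 5498 and 8911 genes in blank and 16751, 16445 and 16465 in treated libraries. Its rank number was thus nearer the top in blank, but its rank as a share of the genes ranked was not. Against AngII the log2 fold change was 5.46 ± 0.33 (limma, adjusted p = 1.06e-08), 2.70 above the median of all genes, and 1.43 ± 0.22 (adjusted p = 0.00246) on scaled values, called in all 18 and 13 alternatives. Scaled IL18BP was 6.12, 4.95 and 5.88 in blank, 0.883, 1.10 and 0.476 in AngII and 3.50, 3.86 and 4.21 in treated libraries. On that scale AngII stood lowest, by -1.88 ± 0.22 against blank (limma, adjusted p = 0.00136), while treated against blank gave -0.45 ± 0.22 (adjusted p = 0.154). On deposited values AngII against blank was at -0.88 ± 0.33 (limma, adjusted p = 0.241), and between -1.27 (adjusted p = 0.0221, without blank 2) and -0.54 (adjusted p = 0.443, without blank 1) when 1 library was left out. It was called in 3 of 18 alternatives, with adjusted p of up to 0.589. Of the 4 promoters printed above, that of Il18bp holds the stricter ISRE form, as do 3 of the other promoters searched.

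IL18 was at 1.39, 0 and 0.554 in blank, 0.302, 0 and 0 in AngII and 12.3, 12.7 and 11.5 in treated libraries. It was higher in treated than in AngII libraries by 3.59 ± 0.26 on deposited values (limma, adjusted p = 5.69e-08) and at 0.54 ± 0.48 (adjusted p = 0.512) on scaled values. Scaled IL18 was 3.01, 0 and 2.11 in blank, 1.02, 0 and 0 in AngII and 0.778, 0.894 and 0.830 in treated libraries. Its rank was 1115 and 1504 in blank 1 and 3, 3114 in AngII 1 and 3829, 3389 and 3671 in treated libraries. The mean FPKM of IL18BP in treated libraries was thus above that of IL18 (12.2 ± 0.586, n = 3). The chains of the IL18 receptor were near 0: IL18R1 was at 0, 0.033 and 0.034 in treated libraries and at 0 elsewhere, and IL18RAP reached at most 0.123. IL15, a growth factor of T and NK cells, was at 0.111, 0 and 0 in blank, 0, 0.064 and 0 in AngII and 1.61, 1.42 and 1.28 in treated libraries. Its difference from AngII was 1.25 ± 0.07 (limma, adjusted p = 4.03e-09), 1.51 less than the median of all genes, and 0.07 ± 0.08 on scaled values. With 1 added, IL15 could not reach that median at its FPKM. Nor could it reach the fold threshold on scaled values, which were at most 0.240.

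IL1A, IL1B, IL1RN, CSF2, IL4 and IL10 stayed below an FPKM of 1 in every library. IL1B was at 0 in the blank libraries, at 0.071, 0 and 0.173 in AngII and at 0.217, 0.081 and 0.170 in treated libraries. IL1A had the same 0 values in blank and AngII 2, and stood at 0.064 and 0.155 in AngII 1 and 3 and at 0.065, 0.072 and 0.076 in treated libraries. Their antagonist IL1RN was at 0 in the 6 blank and AngII libraries and at 0.404, 0.361 and 0.474 in treated ones. CSF2 (GM-CSF), the only colony-stimulating factor, was likewise at 0 in blank and AngII and at 0.440, 0.491 and 0.688 in treated libraries. IL4 was read only in treated 3 (0.330) and IL10 only in treated 2 (0.086). None of these 6 genes met the FPKM minimum. In the fit with no minimum IL1RN and CSF2 stood higher in treated than in AngII libraries by 0.50 ± 0.03 and 0.62 ± 0.05 in log2 (limma, adjusted p = 3.65e-07 and 3.20e-06), below the fold threshold, and IL1A, IL1B, IL4 and IL10 had adjusted p of 0.161 or more. With 1 added, no gene below 1 in every library can reach that threshold.

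Of the TNF superfamily, TNFSF10 stood out. It was at FPKM of 0.084, 0 and 0.114 in blank, 0.435, 0.242 and 0.529 in AngII and 177, 186 and 213 in treated libraries (192 ± 18.5, n = 3), the highest mean of all 59 genes. The 3 groups did not overlap. Against AngII its mean was 478 times higher and its log2 fold change was 7.11 ± 0.23 (limma, adjusted p = 2.53e-10), 4.34 above the median of all genes, and against blank it was 7.50 ± 0.23 (adjusted p = 2.05e-10). On scaled values it was still higher, by 2.72 ± 0.27 against AngII (limma, adjusted p = 0.000352) and 3.57 ± 0.27 against blank (adjusted p = 0.000171). These calls held in all 18 alternatives on deposited and all 13 on scaled values. TNFSF10 met the FPKM minimum only through the treated libraries, so the direction of the deposited differences was fixed. Its rank was 289, 262 and 205 in the treated libraries, against 2361, 4515 and 2123 in AngII. AngII against blank gave 0.39 ± 0.23 (limma, adjusted p = 0.499) and, scaled, 0.84 ± 0.27 (adjusted p = 0.0645), with an exact permutation p = 0.1 on deposited values. The scaled difference was called in 2 of 13 alternatives, with a pseudocount of 0.1 (2.27) and without AngII 2 (1.15). Only this gene and TNFSF12 stood higher in every AngII than in every blank library, 2 of the 57 genes above 0 in any library, against 12.8% of all such genes.

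TNFSF12 (TWEAK, which acts on fibroblasts through its receptor Fn14) was at 0 in the blank libraries, at 0.091, 0.456 and 0.221 in AngII and at 10.2, 10.0 and 7.06 in treated libraries. On scaled values AngII against blank was at 0.71 ± 0.17 (limma, adjusted p = 0.0243), below the fold threshold, and treated against AngII was at -0.02 ± 0.17. TNFSF13 (APRIL, a B cell factor), whose gene lies next to TNFSF12, was at 0.519, 0 and 0.086, then 0, 0.068 and 0, then 2.27, 2.54 and 3.51. Neither was called on scaled values. With 1 added, TNFSF13 could not be called there in treated against AngII, nor TNFSF12 in treated against blank. How reads of neighbouring or closely related genes were divided is not given in the sources used here.

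TNF itself was low, at 0.260, 0 and 0.295 in blank, 0 in the 3 AngII libraries and 0.381, 0.681 and 0.537 in treated libraries. Like IL6 it was above 0 in blank 1 and blank 3 and in no AngII library. TNFAIP6, a TNF-induced protein of the extracellular matrix, was at 0.156, 0 and 0.212 in blank, 0.180, 0 and 0.219 in AngII and 0.549, 0.920 and 0.215 in treated libraries. Its treated libraries overlapped with AngII and lay just above blank. TNFAIP8L2, a brake on Toll-like receptor signalling, was read in AngII 1 (0.055) and at 0.777, 0.558 and 0.913 in treated libraries. TNFRSF11B (osteoprotegerin, a decoy receptor that binds TNFSF10 among other ligands) was at 0.073 in AngII 2 and at 0.766, 0.132 and 0.415 in treated libraries. The treated libraries differed more from each other in TNFRSF11B than in TNFSF10. TNFSF13B was at 0.357, 0.299 and 0.210 in treated libraries only, and TNFSF4 was read in treated 3 alone (0.637).

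The 7 Toll-like receptors were each above 0 in the 3 treated libraries and at most 0.124 in any other. TLR3, which binds double-stranded RNA, was at 0 in blank, at 0.040, 0.050 and 0 in AngII and at 5.31, 5.21 and 6.49 in treated libraries. TLR4, the receptor for bacterial lipopolysaccharide, was at 0.044, 0.013 and 0.013 in blank, 0.034, 0.085 and 0.124 in AngII and 2.64, 2.70 and 3.36 in treated libraries. TLR6, which pairs with TLR2, reached 1.47, 2.20 and 2.31 in treated libraries. All 3 met the FPKM minimum only through the treated libraries, so the direction of their deposited difference was fixed. They were called higher in treated than in AngII libraries on deposited values, by 2.69 ± 0.09, 1.85 ± 0.08 and 1.56 ± 0.10 in log2, each below the median of all genes (2.76). With 1 added, genes at these treated FPKM could not reach that median even from 0, so it does not show a smaller change. On scaled values TLR3 was at 0.36 ± 0.07 (limma, adjusted p = 0.00497), below the fold threshold, TLR4 at -0.03 ± 0.09 and TLR6 at 0.14 ± 0.05. Their scaled values were at most 0.467, 0.371 and 0.166 in any library, so with 1 added none could reach that threshold. TLR1, TLR2, TLR5 and TLR10 reached an FPKM of at most 0.116, 0.157, 0.151 and 0.305. TLR2 was thus below its partner TLR6 in each treated library.

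CD14, which hands lipopolysaccharide to TLR4 and marks monocytes, was at 1.14, 0.151 and 0.397 in blank, 0.202, 0.127 and 0 in AngII and 8.01, 5.16 and 8.56 in treated libraries. It was named after its values were seen. AngII against blank was at -0.45 ± 0.23 (limma, adjusted p = 0.420) on deposited and -1.18 ± 0.23 (adjusted p = 0.00992) on scaled values, where it changed less in size than GRO-A, CCL2 and IL18BP. The scaled call was lost when only the compared groups were fitted and without any 1 of the treated libraries. Treated against AngII it was at 0.21 ± 0.23 on scaled values, where it was below 1 in both groups and so could not be called.

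**Figure D4:**
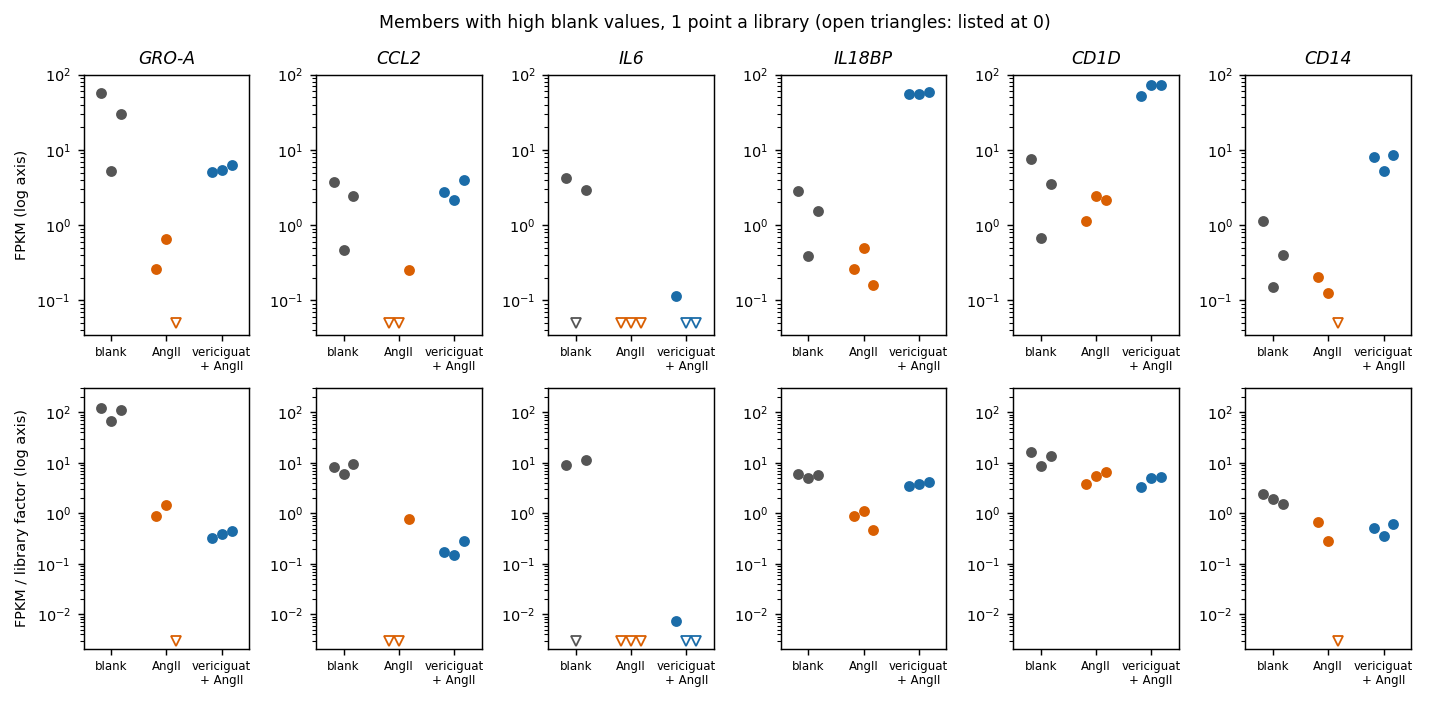
FPKM (upper row) and scaled FPKM (lower row) of 6 genes, 1 point a library, both on log axes, with open triangles for values listed at 0. GRO-A, CCL2 and IL6 are high in blank (IL6 in 2 of the 3 libraries) and low or at 0 in AngII on both scales, while IL18BP, CD1D and CD14 are highest in the treated libraries above and in the blank libraries below.

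CD1D and CD59 were the highest of the CD antigens. CD1D, which presents lipids to NKT cells, was at 7.49, 0.671 and 3.53 in blank, 1.15, 2.41 and 2.18 in AngII and 52.6, 71.6 and 73.1 in treated libraries (65.8 ± 11.4, n = 3). Blank and AngII overlapped, with a log2 fold change of -0.49 ± 0.52 (limma, adjusted p = 0.782) that turned to 0.06 without blank 1. On scaled values AngII was lower by -1.11 ± 0.32 (limma, adjusted p = 0.0457), called in 3 of 13 alternatives, and treated against blank gave -1.28 ± 0.32 (adjusted p = 0.0142), lost without any 1 of blank 1, blank 3 or treated 1. The deposited difference between treated and blank was 4.04 ± 0.52 in the other direction (limma, adjusted p = 1.08e-05), so its sign depends on the scale. Entries named CD1A, CD1B, CD1C and CD1E, the group 1 CD1 genes that rat lacks, were at 0 in all blank and AngII libraries and at most 0.447 (CD1C, treated 3) in treated ones.

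CD59, which stops complement from piercing the cell's own membrane, was at 1.60, 0.262 and 0.787 in blank, 0.550, 0.815 and 0.547 in AngII and 51.4, 54.6 and 51.8 in treated libraries (52.6 ± 1.75, n = 3). Against AngII it was higher by 5.04 ± 0.27 (limma, adjusted p = 3.50e-09), 2.27 above the median of all genes. On scaled values this came to 0.73 ± 0.20 (limma, adjusted p = 0.0321), below the fold threshold, and to 0.12 ± 0.20 against blank. CD63 was at 5.58, 7.24 and 5.84 in treated libraries and at most 0.186 elsewhere, and CD38, an enzyme that consumes NAD, at 1.78, 2.17 and 1.98 against at most 0.135. CD38 was 1.43 ± 0.07 higher than in AngII (limma, adjusted p = 1.23e-09), 1.34 less than the median of all genes, and at -0.18 ± 0.13 on scaled values. With 1 added, CD38 could not reach that median at its FPKM. Nor could it reach the fold threshold on scaled values, which were at most 0.682.

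The lymphocyte antigens were low throughout. CD3E, CD5 and CD200R1 were at 0 in the 6 blank and AngII libraries and at up to 0.571, 0.511 and 0.099 in treated ones. CD4 and CD247 reached 0.961 and 1.37 in treated libraries and 0.085 and 0.096 in AngII. The costimulatory ligand CD80 was at 0.412, 0.460 and 0.880 in treated libraries, its receptor CD28 at 0.183, 0.128 and 0.134, and the other ligand of CD28, CD86, was read in AngII 1 alone (0.112). CD40LG was one of the few with values in blank, 0.139 in blank 1 and 0.127 in blank 3, and had 0.491, 0.183 and 0 in treated libraries. Across all 57 genes above 0 in any library, 40 had every treated library above every AngII library and 40 above every blank library, against 82.1% and 83.4% of all such genes. None had every treated library below every AngII or every blank library, against 0.131% and 0.0930%.

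Genes of the surrounding pathways were counted from 3 lists that hold none of the 59 genes. Of 63 genes of innate signalling 6 are listed by symbol and 5 were tested, of 38 interferon-stimulated genes 1 is listed (EIF2AK2, tested), and of 49 inflammatory effectors 22 are listed and 9 were tested. For AngII against blank 1 of these 15 passed on deposited values, HMGB1, a nuclear protein that alerts the immune system when released, at 0.404, 0.116 and 0.163 in blank and 2.75, 1.63 and 2.08 in AngII, higher by 1.35 (limma, adjusted p = 0.0308). On scaled values HMGB1 was higher by 1.84 ± 0.32 (limma, adjusted p = 0.00555), and the interferon-regulated factor IRF1 and the adhesion molecule SELP were lower, by -1.50 ± 0.30 (adjusted p = 0.0107) and -2.03 ± 0.25 (adjusted p = 0.00150).

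IRF1, like TNFSF10 and IL18BP, had its highest FPKM in the treated libraries. Its FPKM was 1.59, 0.142 and 0.896 in blank, 0.127, 0.317 and 0 in AngII and 100.4, 123 and 135 in treated libraries. It was higher than in AngII by 6.71 ± 0.31 (limma, adjusted p = 1.26e-09), 3.95 above the median of all genes, and by 2.76 ± 0.30 (adjusted p = 0.000445) on scaled values, the only one of the 15 genes called there. Against blank, scaled IRF1 and HMGB1 were higher and SELP (-1.98 ± 0.25, limma, adjusted p = 0.000602) and the neutrophil protein S100A9 (-2.53 ± 0.38, adjusted p = 0.00130) were lower. On deposited values 5 of 5, 1 of 1 and 7 of 9 genes of the lists were higher in treated libraries than in AngII and the same numbers against blank. Haptoglobin (HP), an acute-phase protein, had 33.1, 0 and 13.3 in blank, 2.69, 0.130 and 0.377 in AngII and 6.83, 3.17 and 1.36 in treated libraries, so that blank 1 and 3 stood above all others and blank 2 below them. Its AngII difference of -2.14 ± 1.05 was not called (limma, adjusted p = 0.396).

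Markers of endothelial cells (KDR and VWF listed of 6) summed to 0.054 to 0.398 in blank, 0.083 to 0.421 in AngII and 81.3 to 86.2 in treated libraries, and both were called higher in the treated group than in AngII on scaled values. Smooth muscle and pericyte markers (3 of 7 listed) summed to 0.920 to 25.2, 4.70 to 6.85 and 428 to 731, and erythroid markers (2 of 5 listed) to 154 to 398, 204 to 310 and 8364 to 15127. On scaled values the erythroid markers were not called in any comparison. Cardiomyocyte markers were called higher on scaled values, 2 of the 6 tested against AngII (TTN by 1.68 and MYH7 by 1.93 in log2) and 5 of 6 against blank. The endothelial and cardiomyocyte markers called there were higher in the treated group, as were scaled TNFSF10 and, against AngII, IL18BP, and their part in these results was not tested.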

How the data were processed

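RNA-seq of 9 libraries of neonatal rat CFs, 3 a group by their labels, was used. The authors removed adapters and reads of low quality, aligned the rest to a reference and deposited 1 table of FPKM. The submitters' processing notes name FastQC 0.11.9, Trimmomatic 0.39, HISAT2 2.2.1, featureCounts 2.0.1 and OryCun2.0, without settings. The table used here holds no counts, so the depth is unknown and no counting interval is given. Genes of low FPKM are the least precise.

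Linear models were fitted to log2(FPKM + 1), which understates changes of low genes, with limma 3.58.1 (R 4.3.3), 1 model for all 9 libraries, a trended eBayes prior and Benjamini-Hochberg adjustment over 10908 genes. The fit was tested on simulated data. Single genes also had two-sided exact permutation tests. Named with values were GRO-A and TNFSF10, the 3 tested genes with the most positive and the 3 with the most negative change in each comparison, the 5 with the highest mean in each group, and ligands with a listed receptor where both met the minimum. Others are named to account for the rest, except 1 gene that is counted but not reported here. List genes are named where they passed in AngII against blank or lay over 2 (log2) from the median of all genes. The genes and lists were chosen with earlier results of these data known.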

Additional observations from a re-analysis of the deposited data

How the results depend on the processing

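With the deposited values 1, 18 and 17 of the 18 tested genes were called for AngII against blank, treated against AngII and treated against blank. In that order the counts were 5, 2 and 4 with median-ratio scaling, 2, 9 and 8 with the same sum without the KEF51 entries, and 5, 2 and 5 with quantile normalization. Over all genes tested, 169, 10869 and 10845 of 10908 were called on deposited values and 915, 454 and 1043 with median-ratio scaling. The same sum gave 220, 6815 and 7010 of 10895 genes, and quantile normalization 802, 378 and 944 of 10908. A mean FPKM of at least 5, which left 5 of the genes, gave 5 for both comparisons with the treated libraries, against 3113 and 3110 of all 3124 genes. For AngII against blank, a pseudocount of 0.1 gave 3 and a fit of only the 2 groups gave 0, against 969 and 0 of all 10908 genes. The replicate block also gave 0, with 5 of the genes at an unadjusted p below 0.05 in limma, against 7 and 1554 of all genes. Leaving out 1 library gave 0 to 3, 18 to 18 and 16 to 17, with 3 without blank 2 and 0 without blank 3, AngII 3 or any treated library. Over all genes it gave 0 to 309, 10852 to 10870 and 10807 to 10870. On scaled values the counts of 5, 2 and 4 became 3 for AngII against blank with only the 2 groups, 7 (5 lower and 2 higher) for AngII against blank and 7 (3 lower and 4 higher) for treated against blank with a pseudocount of 0.1, and 4, 2 and 5 with the replicate block. Over all 10908 genes the same fits gave 277 with only the 2 groups, 1727 and 3339 with the pseudocount, and 833, 416 and 1025 with the block. Leaving out 1 library there gave 3 to 7, 2 to 2 and 3 to 6, against 563 to 1399, 194 to 756 and 614 to 1397 of all genes. These scaled alternatives were chosen after seeing the data.

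The sign of some changes reversed. With median-ratio scaling and quantile normalization GRO-A in treated against AngII came to -0.26 and -0.32, CCL11 to -0.11 and -0.38, and CD38 to -0.18 and -0.49, and IL15 to -0.20 with the latter. Treated against blank, CCL2 came to -2.85 and -2.87 (-2.14 with the same sum), IL18BP to -0.45 and -0.40, CCL11 to -0.30 and -0.68, and CD1D to -1.28 and -1.23. TLR4 in AngII against blank came to -0.0066 with quantile normalization. Leaving out 1 library, scaled GRO-A ranged from -0.709 to 0.0290 and CCL11 from -0.26 to 0.15 in treated against AngII, CCL2 from -0.0679 to 0.785 in treated against blank, and CD1D from -1.12 to 0.0554 in AngII against blank. The cause was not tested.

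Equal replicate numbers did not pair the libraries: their 9 correlations of deviations lay between -0.0616 and 0.0646, and 0 libraries correlated best with their own number. No counts were used, and genes listed at 0 in whole groups have no error.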
